A study of Drosophila melanogaster with 18 samples.

Results

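CBP2862 is one of the mesodermal enhancers of *Drosophila melanogaster* that were assayed by quantitative enhancer-FACS-seq (QeFS), an assay in which a pool of tagged enhancer reporters is read out as RNA and as DNA from cells sorted out of whole embryos. The CBP2862 series was chosen by name: it comprised every construct whose name starts with CBP2862-, which gave 8 of the 93 constructs and 28 of the 312 tags in the libraries. The 8 constructs were the wildtype enhancer (WT) and every combination of mutated Deaf1 sites (D), Schlank motifs (S) and the ZIPIC motif. ZIPIC is also called CG7928, and its mutation carries the digit 7 in the construct names, so that CBP2862-DS7 has the sites of all 3 factors mutated.

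Both sorted populations came from embryos that carried a CD2 surface marker transgene and the reporter pool, with every reporter integrated at the same landing site by ΦC31 integrase. The twi:CD2+ cells (3 collections, replicates 1 to 3) were CD2-positive cells of embryos whose marker is driven by the *twist* promoter across the whole mesoderm. The mef2:CD2- cells (6 collections, replicates 1 to 3 in week 1 and 4 to 6 in week 2) were the CD2-negative cells of embryos whose marker is driven by the IE-D5 element of *Mef2* in fusion-competent myoblasts, and thus cells other than these. Embryos of both were laid over 2.25 h and aged for 11 h at 18 °C, and none was treated. The libraries hold reporter tags and no endogenous genes, so the sorted identity could not be checked against markers here.

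Enhancers combine binding sites for several transcription factors, and the contribution of a site can depend on which other sites are intact. Deaf1 is a SAND domain protein that binds short sites that contain TCG, often as TTCG. Schlank is a ceramide synthase that also carries a homeodomain, and ZIPIC is a zinc finger protein that recruits the insulator cofactor CP190. CBP2862 lies just upstream of *fwd*, a gene on chromosome arm 3L that encodes a lipid kinase of the Golgi. Mutating each motif alone and together asks how much each one contributes to activity, and whether its contribution depends on the other sites.

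The designed sequences were available for the first 385 bases of the enhancer. In this stretch, CBP2862-D differed from the wildtype at 5 single bases, and the other constructs with mutated Deaf1 sites carried the same 5. No substitution of the Schlank or ZIPIC mutants lay in it, and the rest of the enhancer was not analysed here. The 5 substitutions are G12C, C61G, G111C, G128A and C202G, counted from 1 at the first enhancer base after the cloning site. They are shown because every D construct below carries them, with the altered base in capitals, 5′ to 3′ on the strand listed by the study. Whether further Deaf1 sites are mutated beyond the listed bases was not checked.
CBP2862-D site 1: tcccgttactcCtagcgtaagcgg
CBP2862-WT site 1: tcccgttactcGtagcgtaagcgg
CBP2862-D site 2: tgaatgactaacGgaaacaaagagg
CBP2862-WT site 2: tgaatgactaacCgaaacaaagagg
CBP2862-D site 3: ataatcggtgacCagtgagtcttct
CBP2862-WT site 3: ataatcggtgacGagtgagtcttct
CBP2862-D site 4: agtcttcttgccAaaaatatctcat
CBP2862-WT site 4: agtcttcttgccGaaaatatctcat
CBP2862-D site 5: ctgctctggtttGgttgcatttggt
CBP2862-WT site 5: ctgctctggtttCgttgcatttggt
In the wildtype, the letters TCG, searched on both strands, include the changed base at all 5 sites, and TTCG at 3 of the 5 (sites 2, 4 and 5), whereas sites 1 and 3 lack TTCG. In CBP2862-D, neither includes the changed base at any of the 5. TCG, which is part of every TTCG, occurred 7 times in the listed part of CBP2862-D and 12 times in that of CBP2862-WT, and in all 12 wildtype enhancers (100%), with a median of 11.5. The letters TTCG occurred 3 times in the listed part of CBP2862-D and 6 times in that of CBP2862-WT. The longer letters occurred in the same length of 11 of the 12 wildtype enhancers (91.7%), with a median of 3.5 occurrences. A match of these letters is a description, not a site shown to be bound.

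Activity was a ratio of shares: the fraction of the RNA UMIs that a tag held, over the fraction that it held of the DNA UMIs from the same sorted cells. An activity of 1 means as much RNA per DNA as the pool of reporters as a whole. A UMI is a random label that counts 1 original molecule. An observation is 1 tag in 1 collection with at least 65 DNA UMIs. There were 64 such observations for twi:CD2+ and 122 for mef2:CD2- cells, on 24 of the 28 tags. The other 4 tags (1 each of WT, D, DS and DS7) never exceeded 22 DNA UMIs. The libraries held 813922 to 1366066 RNA UMIs and 317396 to 621449 DNA UMIs in the twi:CD2+ cells, and 560294 to 1201998 RNA UMIs and 54038 to 248151 DNA UMIs in the mef2:CD2- cells. CBP2862 tags took 6.36% to 7.82% of the DNA UMIs over both populations and 2.82% to 3.79% of the RNA UMIs. Counting error alone had a median SD of 0.07 on the log2 scale in the twi:CD2+ cells and of 0.10 in the mef2:CD2- cells, well below the spread between tags and collections given below. Activity is an average over the sorted cells, in which fewer expressing cells and less RNA per cell cannot be told apart.

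The wildtype enhancer was the most thinly sampled construct of the series. Its observations came from the tags
WT tag 2: aactacacgataaccatgga
WT tag 3: ttttatacgactcacagctg
which are shown because every comparison with the wildtype rests on them. In the twi:CD2+ cells, WT tag 2 had an activity of 0.609, 1.05 and 0.575 in replicates 1, 2 and 3, and WT tag 3 had 1.79 in replicate 1 only, a mean of 1.01 ± 0.564 (SD, n = 4 observations). In the mef2:CD2- cells, WT tag 2 had 0.511 and 0.640 in replicates 1 and 2, and WT tag 3 had 2.44, 0.981 and 0.590 in replicates 4, 5 and 6, a mean of 1.03 ± 0.806 (SD, n = 5 observations). Each week of mef2:CD2- cells was thus measured with a different wildtype tag, so that tag and week cannot be told apart, and replicate 3 had no wildtype value. With 2 observations in week 1 and 3 in week 2, the wildtype reached the minimum of 4 observations only over both weeks, so every mef2:CD2- comparison with it rests on pooling them. Among the 11 wildtype enhancers of the motif series with enough observations in each population, CBP2862 ranked 5 from the highest in both. The wildtype versions of the spiked-in control enhancers were not part of this ranking. The other wildtype enhancers ranged from 0.0366 to 7.90 in the twi:CD2+ cells and from 0.0253 to 6.11 in the mef2:CD2- cells.

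Mutation of the Deaf1 sites alone gave a low activity on each of the 3 tags that were observed in all 9 collections:
D tag 1: aaaggcctactataaagaat
D tag 2: gatttgtgtgagaagatgta
D tag 3: tgaggtcagcgacgcaaagc
The 9 observations of the twi:CD2+ cells lay between 0.0454 and 0.808 (median 0.115, mean 0.186 ± 0.238, SD). The highest, D tag 3 in replicate 2, rested on 98 DNA UMIs, and the other 8 did not exceed 0.179. The 18 observations of CBP2862-D in the mef2:CD2- cells lay between 0.0271 and 0.233 (median 0.125), and every one was below every wildtype observation. The mean activity was 0.130 ± 0.0616 (SD, n = 18), and the means of the 3 tags were 0.107, 0.114 and 0.168.

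The Schlank mutant and the ZIPIC mutant had means near that of the wildtype, with a wide spread. CBP2862-S had 0.0407 to 1.45 in the twi:CD2+ cells (median 0.743, mean 0.793 ± 0.440, SD, n = 9) and 0.419 to 2.12 in the mef2:CD2- cells (median 1.27, mean 1.13 ± 0.430, SD, n = 17). The value of 0.0407 was S tag 3 in replicate 1, with 24 RNA and 268 DNA UMIs. That tag had 0.743 and 0.422 in the other twi:CD2+ collections. CBP2862-7 had 0.154 to 1.62 in the twi:CD2+ cells (median 0.822, mean 0.855 ± 0.434, SD, n = 11) and 0.172 to 3.24 in the mef2:CD2- cells (median 0.601, mean 0.825 ± 0.783, SD, n = 19). Its 4 tags differed. Tag means in the mef2:CD2- cells ran from 0.254 to 1.47, and the tag with the lowest mean there had the highest in the twi:CD2+ cells, 1.23 (n = 2 collections).

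The 3 double mutants had means between those of the Deaf1 mutant and the wildtype. CBP2862-DS had 0.208 to 0.930 in the twi:CD2+ cells (median 0.397, mean 0.448 ± 0.228, SD, n = 8) and 0.228 to 0.833 in the mef2:CD2- cells (median 0.362, mean 0.405 ± 0.149, SD, n = 16). CBP2862-D7 had 0.142 to 1.03 in the twi:CD2+ cells (median 0.309, mean 0.414 ± 0.349, SD, n = 5) and 0.146 to 1.37 in the mef2:CD2- cells (median 0.434, mean 0.557 ± 0.383, SD, n = 14). CBP2862-S7 had 0.183 to 0.959 in the twi:CD2+ cells (median 0.368, mean 0.474 ± 0.233, SD, n = 9) and 0.153 to 0.685 in the mef2:CD2- cells (median 0.505, mean 0.467 ± 0.161, SD, n = 16). Tags of CBP2862-DS and of CBP2862-S7 had close means in the mef2:CD2- cells, their highest tag mean being 1.22 and 1.21 times the lowest, while for CBP2862-D7 this ratio was 3.98.

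The triple mutant had means near those of the Deaf1 mutant, from which it was not told apart in either population (adjusted p = 0.775 in the twi:CD2+ cells and 0.564 in the mef2:CD2- cells, exact permutation test). CBP2862-DS7 had 0.0210 to 0.241 in the twi:CD2+ cells (median 0.0845, mean 0.110 ± 0.0701, SD, n = 9) and 0.00307 to 0.285 in the mef2:CD2- cells (median 0.105, mean 0.108 ± 0.0864, SD, n = 17). Its tags are shown because one of them stood apart in the mef2:CD2- cells:
DS7 tag 1: acgcccgagcatgcacatat
DS7 tag 3: cgccttataggtagtaaata
DS7 tag 4: cgtagtccagtgcaatctct
The 3 tags had means of 0.0982, 0.107 and 0.125 and overlapped in the twi:CD2+ cells. In the mef2:CD2- cells DS7 tag 1 averaged 0.0181 ± 0.0139 (SD, n = 5 collections) and never exceeded 0.0351, whereas DS7 tags 3 and 4 averaged 0.114 ± 0.0525 and 0.177 ± 0.0844 (SD, n = 6 collections each). The values of DS7 tag 1 rested on 7 to 88 RNA UMIs, with a counting SD of up to 0.55 on the log2 scale. Such low values weigh more on that scale, on which the geometric mean of CBP2862-DS7 in these cells was 0.0653. Over all constructs of the series, CBP2862-DS7 and CBP2862-D were the lowest in both populations.

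Pairs of constructs were compared by exact permutation of the ranks of their observations, with the p-values adjusted over the pairs of all enhancers of a population and called below 0.1. In the twi:CD2+ cells 11 of the 28 CBP2862 pairs were called, against 23.2% of all 241 pairs in the pool. In the mef2:CD2- cells 19 of the 28 were called, against 39.9% of all 273 pairs. Against the wildtype, CBP2862-D and CBP2862-DS7 were the called mutants in the twi:CD2+ cells. In the mef2:CD2- cells CBP2862-DS and CBP2862-S7 were called as well, and in neither population was CBP2862-S, CBP2862-7 or CBP2862-D7 called. The result for CBP2862-D7 depended on the setting in the mef2:CD2- cells. There 5 of the 7 mutants were called with a minimum of 20 DNA UMIs, CBP2862-D7 among them. The same 5 were called with a t distribution in place of the permutation of ranks. The tests treat tags and collections as independent, although 1 tag recurs in several collections. With tag means as the unit, 10 pairs were called in the twi:CD2+ cells and 12 in the mef2:CD2- cells, and in each population 2 mutants were called against the wildtype, CBP2862-D among them. In this setting log2 activity was averaged per tag, and the fold change is a ratio of geometric means over tags. Its permutation test drew tag deviations from their construct mean, pooled over all enhancers, which assumes a common spread. No call against the wildtype could be made in the twi:CD2+ cells without replicate 1, 2 or 3, nor in week 1 or week 2 of mef2:CD2- cells alone, since the wildtype then had fewer than 4 observations.

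Each motif has 4 backgrounds in this series, which are the 4 states of the other motifs, and so 12 effects in all. The effect is given as the fold change, the mean activity with the motif mutated over that with the motif intact, ± the propagated standard error. In the twi:CD2+ cells 5 of the 12 effects were called, against 23.5% of all 102 such steps in the pool, and in the mef2:CD2- cells 8 of the 12, against 37.9% of 116.

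Mutation of the Deaf1 sites gave a fold change below 1 on all 4 backgrounds and in both populations, and it was called on 2 backgrounds in the twi:CD2+ cells and on 3 in the mef2:CD2- cells. On the wildtype background the fold change was 0.185 ± 0.0945 in the twi:CD2+ cells (adjusted p = 0.0297, exact permutation test) and 0.126 ± 0.0461 in the mef2:CD2- cells (adjusted p = 0.000176, exact permutation test). The twi:CD2+ fold change was 0.108 with a minimum of 200 DNA UMIs, which drops the observation of D tag 3 in replicate 2, and 0.109 with tag means, both called. CBP2862-D was below CBP2862-WT in 3 of 3 twi:CD2+ collections and in 5 of 5 mef2:CD2- collections. With Schlank motifs mutated, the activity of CBP2862-DS was 0.565 ± 0.146 of that of CBP2862-S in the twi:CD2+ cells, which was not called (adjusted p = 0.349, exact permutation test). This fold change was 0.358 ± 0.0467 in the mef2:CD2- cells (adjusted p = 2.07e-06), lower in 6 of 6 collections. With tag means the mef2:CD2- effect was 0.373 and lost its call (adjusted p = 0.175, permutation test). With the ZIPIC motif mutated, the loss of the Deaf1 sites was not called in either population by permutation. CBP2862-D7 had 0.484 ± 0.197 of the activity of CBP2862-7 in the twi:CD2+ cells (adjusted p = 0.131, exact permutation test) and 0.675 ± 0.192 in the mef2:CD2- cells (adjusted p = 0.473). With a t distribution in place of the permutation of ranks, the twi:CD2+ effect was called (adjusted p = 0.0544). With Schlank and ZIPIC motifs both mutated, the effect of the Deaf1 sites was called in both populations. CBP2862-DS7 had 0.232 ± 0.0623 of the activity of CBP2862-S7 in the twi:CD2+ cells (adjusted p = 0.00229, exact permutation test) and 0.231 ± 0.0490 in the mef2:CD2- cells (adjusted p = 4.90e-07), lower in 3 of 3 and 6 of 6 collections. With tag means the mef2:CD2- fold change was 0.135 and called.

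Mutation of the Schlank motifs went in opposite directions depending on the other motifs. In the enhancer without other mutations no effect was called, with a fold change of 0.789 ± 0.265 in the twi:CD2+ cells and 1.10 ± 0.396 in the mef2:CD2- cells. The twi:CD2+ value was 0.522 with tag means, also not called. Where the Deaf1 sites were mutated, mutation of the Schlank motifs raised the activity to 2.41 ± 1.11 times that of CBP2862-D in the twi:CD2+ cells (adjusted p = 0.0457, exact permutation test) and to 3.12 ± 0.453 times in the mef2:CD2- cells (adjusted p = 2.48e-08). CBP2862-DS was above CBP2862-D in 3 of 3 and 6 of 6 collections. With tag means both calls were kept, but near the threshold. The fold change was then 3.17 in the twi:CD2+ cells (adjusted p = 0.0894) and 3.40 in the mef2:CD2- cells (adjusted p = 0.0740, permutation tests). Within the mef2:CD2- collections the fold change was 3.39 in week 1 and 2.94 in week 2, both called. With a minimum of 200 DNA UMIs, which drops the same observation of D tag 3, the twi:CD2+ fold change was 4.14 (adjusted p = 0.00268, exact permutation test). The twi:CD2+ call was lost without replicate 1 (2.40-fold, adjusted p = 0.248) and without replicate 3 (2.02-fold, adjusted p = 0.239, exact permutation tests). Where the Deaf1 and ZIPIC motifs were both mutated, the same change lowered the activity. CBP2862-DS7 had 0.266 ± 0.115 of the activity of CBP2862-D7 in the twi:CD2+ cells (adjusted p = 0.0297, exact permutation test) and 0.194 ± 0.0519 in the mef2:CD2- cells (adjusted p = 6.64e-06), lower in 3 of 3 and 6 of 6 collections. The twi:CD2+ call was lost with tag means (0.291-fold, adjusted p = 0.117) and without replicate 3 (0.238-fold, adjusted p = 0.126, exact permutation test). Without replicate 1 or 2 this effect could not be tested, since CBP2862-D7 then had fewer than 4 observations. Where the ZIPIC motif alone was mutated, CBP2862-S7 had 0.554 ± 0.124 of the activity of CBP2862-7 in the twi:CD2+ cells (adjusted p = 0.130, exact permutation test) and 0.566 ± 0.133 in the mef2:CD2- cells (adjusted p = 0.454), neither of them called, although CBP2862-S7 was the lower in 3 of 3 and 6 of 6 collections.

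Mutation of the ZIPIC motif also went in opposite directions on different backgrounds in the mef2:CD2- cells. Without other mutations its effect was not called, at 0.851 ± 0.272 in the twi:CD2+ cells and 0.800 ± 0.329 in the mef2:CD2- cells. Where the Deaf1 sites were mutated, CBP2862-D7 had 2.23 ± 1.27 times the activity of CBP2862-D in the twi:CD2+ cells, higher in 2 of 3 collections and not called (adjusted p = 0.251, exact permutation test). With a minimum of 200 DNA UMIs, which removes the observation of D tag 3 in replicate 2, it was 3.83 and called (adjusted p = 0.0181, exact permutation test). The fold change was 4.29 ± 0.924 in the mef2:CD2- cells (adjusted p = 4.01e-06), higher in 6 of 6 collections, with 3.29 in week 1 and 4.95 in week 2. With tag means the mef2:CD2- fold change was 3.15 and called only narrowly (adjusted p = 0.0959, permutation test). Where the Deaf1 and Schlank motifs were both mutated, loss of the ZIPIC motif lowered the activity. CBP2862-DS7 had 0.246 ± 0.0684 of the activity of CBP2862-DS in the twi:CD2+ cells (adjusted p = 0.00229, exact permutation test) and 0.267 ± 0.0573 in the mef2:CD2- cells (adjusted p = 2.34e-07), lower in all 9 collections. With tag means the mef2:CD2- fold change was 0.155 and called. Where the Schlank motifs alone were mutated, CBP2862-S7 had 0.597 ± 0.148 of the activity of CBP2862-S in the twi:CD2+ cells (adjusted p = 0.369, exact permutation test) and 0.413 ± 0.0522 in the mef2:CD2- cells (adjusted p = 3.34e-05). The mef2:CD2- effect was 0.428 with tag means and was not called (adjusted p = 0.284, permutation test).

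These departures were measured against a multiplicative model, in which the fold changes of 2 motifs multiply. The interaction is the log2 activity left over by that model, ± SE, tested with permuted residuals and adjusted over all such terms of the population. In the twi:CD2+ cells 4 of the 7 terms of this series were called, against 28.2% of the 39 terms in the pool, and in the mef2:CD2- cells 6 of the 7, against 38.5% of 52. Between Deaf1 and Schlank motifs with ZIPIC intact, the interaction was 2.33 ± 0.91 in the twi:CD2+ cells (adjusted p = 0.0531) and 1.48 ± 0.42 in the mef2:CD2- cells (adjusted p = 0.00305). CBP2862-DS had a mean activity of 0.448 where the product of the single effects gave 0.147 in the twi:CD2+ cells, and 0.405 against 0.142 in the mef2:CD2- cells. Products here and below use mean activities, whereas the interaction is fitted to log2 activities, so their ratio is not the interaction. With ZIPIC mutated the same term was −1.12 ± 0.67 in the twi:CD2+ cells (adjusted p = 0.243) and −2.32 ± 0.62 in the mef2:CD2- cells (adjusted p = 0.00100).

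Between Deaf1 and ZIPIC motifs with Schlank intact, the interaction was 1.73 ± 0.84 in the twi:CD2+ cells (adjusted p = 0.154) and 2.51 ± 0.62 in the mef2:CD2- cells (adjusted p = 0.000650). In the mef2:CD2- cells CBP2862-D7 had a mean of 0.557, against a product of 0.104. With Schlank mutated this interaction was −1.71 ± 0.72 in the twi:CD2+ cells (adjusted p = 0.0550) and −1.29 ± 0.52 in the mef2:CD2- cells (adjusted p = 0.0363). Between Schlank and ZIPIC motifs the interaction was not called with Deaf1 intact, at −0.16 ± 0.81 in the twi:CD2+ cells and −0.75 ± 0.52 in the mef2:CD2- cells. With Deaf1 mutated it had the largest size of the 7 terms in both populations, −3.60 ± 0.75 in the twi:CD2+ cells (adjusted p = 0.000312) and −4.54 ± 0.58 in the mef2:CD2- cells (adjusted p = 4.73e-05, the smallest that the permutations could give). From CBP2862-D, CBP2862-DS and CBP2862-D7 the product for the triple mutant was 0.998 in the twi:CD2+ cells and 1.74 in the mef2:CD2- cells, while CBP2862-DS7 had 0.110 and 0.108. This term does not use the wildtype construct, and it stayed called with tag means, at −3.44 in the twi:CD2+ cells (adjusted p = 0.00538) and −4.35 in the mef2:CD2- cells (adjusted p = 0.000104). It was −4.32 in week 1 (adjusted p = 0.000400) and −4.76 in week 2 (adjusted p = 0.000500) of the mef2:CD2- collections. The interaction of all 3 motifs was −3.44 ± 1.11 in the twi:CD2+ cells (adjusted p = 0.0130) and −3.80 ± 0.82 in the mef2:CD2- cells (adjusted p = 4.73e-05).

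The interactions differed in how firmly they were measured. With tag means, the Deaf1 and Schlank term on the wildtype background kept its call in the twi:CD2+ cells (2.60, adjusted p = 0.0498) and lost it in the mef2:CD2- cells (1.40, adjusted p = 0.386). The twi:CD2+ call was lost with read counts (2.33, adjusted p = 0.119) and with a minimum of 20 DNA UMIs (1.93, adjusted p = 0.127). The Deaf1 and ZIPIC term on the Schlank mutant background was not called with tag means in the twi:CD2+ cells (−1.66, adjusted p = 0.234) or in the mef2:CD2- cells (−1.46, adjusted p = 0.308). That term was also not called in the twi:CD2+ cells with read counts (−1.77, adjusted p = 0.115), without replicate 1 (−0.94, adjusted p = 0.495) or replicate 2 (−1.94, adjusted p = 0.118), or in the mef2:CD2- cells without replicate 3 (−1.12, adjusted p = 0.149) or replicate 6 (−1.02, adjusted p = 0.134), or in week 1 (adjusted p = 0.207) or week 2 (−1.47, adjusted p = 0.311) alone. The Deaf1 and ZIPIC term on the wildtype background was called in the twi:CD2+ cells with a minimum of 200 DNA UMIs (2.09, adjusted p = 0.0331). In the mef2:CD2- cells this term stayed called with tag means, but near the threshold (2.19, adjusted p = 0.0861, permutation test).

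The levels of the 8 constructs were then compared between the populations on UMI counts summed over tags. The populations came from different crosses collected on different days, so cell population, cross and date cannot be told apart in any comparison between them. The paper takes the mef2:CD2- cells as a proxy for the whole embryo, because few cells are excluded, so they also contain mesoderm. None of the 8 CBP2862 constructs was called by edgeR's quasi-likelihood test, against 3.33% of 90 constructs in the pool (lowest adjusted p of the series 0.724). None of the 8 had an unadjusted p under 0.05 with edgeR or DESeq2, and DESeq2 also called 0. The log2 ratio of twi:CD2+ over mef2:CD2- activity was −0.22 ± 0.42 (SE) for CBP2862-D, −0.42 ± 0.43 for CBP2862-D7, −0.33 ± 0.42 for CBP2862-DS7 and −0.27 ± 0.52 for CBP2862-WT. It was −0.23 ± 0.26 for CBP2862-S, −0.08 ± 0.31 for CBP2862-S7, 0.09 ± 0.28 for CBP2862-DS and 0.15 ± 0.34 for CBP2862-7.

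The 12 motif effects were also compared between the populations, collection by collection. No effect was called, against 0% of 116 steps in the pool, and none of the 12 had an unadjusted p under 0.05 in the exact permutation test of 3 against 5 or 6 collections. The smallest p that this test can give is 0.0119 with 6 mef2:CD2- collections and 0.0179 with 5. After adjustment over 116 steps a call would need many steps at that smallest p, while 13 had an unadjusted p under 0.05. The lack of calls therefore does not show that the effects are equal. The effect of the Deaf1 sites on the Schlank mutant background came closest, with a mean log2 effect of −0.82 ± 0.57 in the twi:CD2+ cells (SD, n = 3 collections) and −1.49 ± 0.48 in the mef2:CD2- cells (SD, n = 6 collections), an unadjusted exact p of 0.0833 and an adjusted p of 0.537. For the ZIPIC motif on the Deaf1 mutant background the means were 1.136 ± 1.460 in the twi:CD2+ cells and 2.07 ± 0.70 in the mef2:CD2- cells (SD, adjusted p = 0.795, exact permutation test). These tests had few collections, and the calls that were made in one population only are not shown to differ between them.

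CBP2862 was finally set beside the other enhancers in which the same 3 motifs were mutated, CG7759_33, ChIPCRM3407 and ChIPCRM5405, for the single mutants in the mef2:CD2- cells. The differences were taken within a collection, and 8 comparisons could be made over 4 or 5 collections, in which the smallest possible exact p is 0.125 or 0.0625. None was called (0% of 8, lowest adjusted p = 0.167), as the design did not allow it, and none reached an unadjusted p of 0.05. The mean log2 effect of the Deaf1 mutation was −2.61 in CBP2862, against 0.55 in CG7759_33 and −0.04 in ChIPCRM5405 (n = 5 collections each), and it was the lower in CBP2862 in 5 of 5 collections in both comparisons. The ZIPIC mutation had −0.29 in CBP2862, against 2.58 in ChIPCRM3407, also lower in 5 of 5 collections. The ChIPCRM3407 value rests on 2 mutant tags that disagreed, with means of 0.174 and 1.90 in the mef2:CD2- cells. From imaging, the paper judged a mutant of the ChIPCRM3407 series a false positive of QeFS, without naming it in its text. With the collections of both populations together, a choice made after the data were seen, the Deaf1 effect was lower in CBP2862 than in CG7759_33 by 3.15 ± 0.95 and than in ChIPCRM5405 by 2.35 ± 1.33 on the log2 scale (SD, n = 8 collections), each in 8 of 8 collections (unadjusted p = 0.00781 for both, the smallest that an exact sign-flip permutation test can give there), and both were called after adjustment. The other 6 comparisons were not called there. Every CBP2862 effect in these comparisons shares the same 2 wildtype tags. The collections are thus not independent of the tags, and the sign-flip test does not measure the spread between tags.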

How the data were processed

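RNA and DNA libraries of 9 collections (18 libraries) were used. The authors took the first 8 bases of a read as the UMI, trimmed constant regions with cutadapt and aligned the tag with Bowtie to their lookup table of tags and constructs. The version of Bowtie and a genome build are not given in the sources used here. The deposited values are whole-number counts of UMIs and of reads per tag, without normalization, per the values in the files. Alignment and UMI counting could not be varied, and tags assigned to a wrong construct would stay unseen. Reads of 1 molecule that were amplified are counted once as UMIs and several times as reads.

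Activity, the ratio of shares, was computed with Python 3.11.15, numpy 2.4.6, scipy 1.17.1 and pandas 2.3.3, from all tags of a library, for observations with at least 65 DNA UMIs and constructs with at least 4 observations. The threshold of 0.1 is that of the study's methods. Their limits were set on DNA read counts and within a week. Here 65 was applied to UMIs, and 4 to the observations of a population, both weeks of mef2:CD2- cells pooled, a limit that CBP2862-WT would not reach in either week. Constructs of an enhancer were compared first as a series (Kruskal-Wallis statistic, 100000 permutations) and then in pairs by two-sided exact permutation tests of mean rank, and interactions by 100000 permutations of residuals, with Benjamini-Hochberg adjustment over all enhancers of a population. Populations were compared with edgeR 4.0.16 (limma 3.58.1, R 4.3.3), TMM and a term per collection, leaving out constructs below 10 counts in any library, called at an adjusted p under 0.05. RNA and DNA of a collection come from the same sorted cells and are paired by origin. Replicate numbers of the different populations are unrelated. The 36 pairs of libraries within a group held no identical libraries and all differed by more than sampling noise (lowest chi-square per degree of freedom 18.1). Collections are separate embryo collections. All members are described, and other enhancers are named only where they carry the same motifs. The members and comparisons were chosen with earlier results of these data known. The alternatives were other DNA minimums (20 and 200), read counts, corrected UMI counts, collection as a block, tag means, the t distribution, other normalization and filters, DESeq2 1.42.0, single weeks and leaving out each collection. The tests were tested on simulated data with known fold changes.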

Additional observations from a re-analysis of the deposited data

Results flagged for a closer look

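Tags of CBP2862 with RNA but without DNA were outside the activity measurement. The tag named 7 tag 4 had 732 RNA UMIs in replicate 3 of twi:CD2+ cells, and D7 tag 2 had 90, with no DNA UMI listed for either in that collection. Without a DNA count the ratio of shares is not defined, so neither has an activity there. Another 32 entries with RNA had fewer than 65 DNA UMIs, with 1 to 598 RNA UMIs (median 39). In 28 groups of 4 to 6 mef2:CD2- collections, of tags or of construct means on the log2 scale, 0 collections stood apart by Dixon's criterion, where chance alone would flag about 1 in 20. No motif effect differed between the populations in its exact permutation test.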

How the results depend on the processing

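Counts of calls in the CBP2862 series are given here under other settings, in each case as the number called under that setting. In the twi:CD2+ cells, 2 of 7 interactions were called with read counts, against 4 with UMI counts. Leaving out one twi:CD2+ collection also left fewer comparisons to test. With all collections 11 of 28 pairs, 5 of 12 motif effects and 4 of 7 interactions were called. Without replicate 1 these were 6 of 15, 2 of 6 and 0 of 1, and without replicate 2 they were 8 of 15, 3 of 6 and 0 of 1. Without replicate 3 they were 5 of 21, 2 of 9 and 2 of 3. No mutant could be tested against the wildtype, which then had fewer than 4 observations. In the mef2:CD2- cells, a minimum of 200 DNA UMIs left too few wildtype observations, so that 0 mutants were called against it and 3 of 3 interactions. Tag means gave 12 called pairs and 2 mutants there. Week 1 alone gave 0 mutants and 2 of 3 interactions, and week 2 alone 12 of 21 pairs, 0 mutants and 2 of 3 interactions. Leaving out one mef2:CD2- collection gave 17 to 19 pairs, 3 to 5 mutants, 8 motif effects and 5 to 6 interactions. With collection as a replicate block, the counts of pairs, motif effects and interactions were 11, 5 and 4 in twi:CD2+ and 19, 8 and 6 in mef2:CD2- cells, as without it. Across both populations together, 2 of 8 comparisons with other enhancers were called. In the twi:CD2+ cells without replicate 1 or 2, CBP2862-D7 also had fewer than 4 observations and dropped out. The cause of these changes was not tested, other than the loss of observations of the wildtype and of CBP2862-D7.

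Effects that changed direction were all uncalled in both settings. The fold change of CBP2862-7 over CBP2862-WT was 1.11 in the twi:CD2+ cells with read counts, and in the mef2:CD2- cells it ran from 0.528 to 1.25 when one collection was left out. CBP2862-S over CBP2862-WT in mef2:CD2- was 0.944 with a minimum of 20 DNA UMIs, and from 0.958 to 1.62 when one collection was left out. The interaction of Schlank and ZIPIC motifs on the wildtype background in twi:CD2+ was 0.11 with tag means. The log2 difference of motif effects between the populations was 0.12 for CBP2862-DS7 over CBP2862-S7 and 0.12 for CBP2862-DS7 over CBP2862-DS with read counts. With the tags observed in every collection it was −0.026 for CBP2862-DS7 over CBP2862-D7 and 0.37 for CBP2862-S7 over CBP2862-7. Leaving out one collection gave ranges of −0.22 to 0.64 for CBP2862-7 over CBP2862-WT, −0.31 to 0.34 for CBP2862-D over CBP2862-WT, −0.62 to 0.013 for CBP2862-DS over CBP2862-D, −0.29 to 0.19 for CBP2862-DS7 over CBP2862-DS, −0.36 to 0.20 for CBP2862-DS7 over CBP2862-S7 and −0.22 to 0.044 for CBP2862-S7 over CBP2862-7. The difference from ChIPCRM3407 in the Schlank effect ranged from −0.70 to 0.30, and that from ChIPCRM5405 in the ZIPIC effect from −0.84 to 0.47. The edgeR log2 ratio of twi:CD2+ over mef2:CD2- activity was 0.22 for CBP2862-S7 with tags of at least 65 DNA UMIs in every collection, and without one collection ranged from −0.33 to 0.013 for CBP2862-S, −0.090 to 0.23 for CBP2862-DS, −0.53 to 0.12 for CBP2862-D and −0.27 to 0.090 for CBP2862-S7. Both wildtype tags in use were below the minimum of DNA UMIs in several collections, deeper libraries among them: WT tag 2 had 92 DNA UMIs in the mef2:CD2- library of replicate 1 (116821 in all) and 1 in that of replicate 4 (152441 in all).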

Other observations

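Among all constructs with enough observations, CBP2862-D ranked 20 from the lowest of 86 in the twi:CD2+ cells and 19 from the lowest of 91 in the mef2:CD2- cells, and CBP2862-DS7 ranked 15 and 17. Of the 28 tags, 14 had at least 65 DNA UMIs in all 9 collections.

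Tags below the DNA minimum held further values, which were used in no comparison. WT tag 3 had activities of 2.29, 1.38 and 0.485 in replicates 1, 2 and 3 of mef2:CD2- cells, on 50, 35 and 60 DNA UMIs. These are the collections of week 1, in which the wildtype is otherwise represented by tag 2. D tag 4 had 0.723, 0.643 and 0.368 in replicates 1, 2 and 3 of twi:CD2+ cells, on 17, 8 and 22 DNA UMIs, each of them above 8 of the 9 CBP2862-D observations in use. DS tag 2 had 17.4 in replicate 3 of twi:CD2+ cells, on 1 DNA UMI and 30 RNA UMIs, and 7 tag 4 had 7.07 in replicate 4 of mef2:CD2- cells, on 4 DNA UMIs and 142 RNA UMIs.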
